A study of Rattus norvegicus with 28 samples.

Results

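The tumour necrosis factor (TNF) superfamily was followed in rat lung, as all genes of the deposited table named Tnf, Lta, Ltb, Fas, Faslg, Cd40, Cd27, Ltbr or Eda2r or carrying a numbered Tnfsf or Tnfrsf symbol, with a value above 0 in at least 1 library. These were 29 of 17002 genes, chosen by name and not by their values. The tissue was the right upper lobe of the lung of Sprague Dawley rats, sequenced in 28 libraries from 8 groups, to compare ventilation with constant and with variable tidal volumes. Uninjured lungs were unventilated (control_blank, n = 3), ventilated at a constant tidal volume under volume control (healthy_VCV, n = 4) or ventilated at tidal volumes that varied (healthy_noisy, n = 3). Acutely injured lungs were all ventilated, at constant (acute_VCV, n = 3) or variable (acute_noisy, n = 4) tidal volume. Chronically injured lungs were unventilated and taken 14 days after the injury was induced (control_chronic, n = 5), or were ventilated at constant (chronic_VCV, n = 3) or variable (chronic_noisy, n = 3) tidal volume. All libraries thus came from 1 strain, and an unventilated group with acute injury was not analysed here, so acute injury and ventilation cannot be told apart against control_blank. The labels used here do not say how injury was induced, how old the rats were or for how long they were ventilated, and number the libraries without further saying that each is a separate animal, so p-values measure the spread between these samples.

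Ligands of the TNF superfamily are mostly membrane proteins of leukocytes that can be shed as soluble trimers, and their receptors are membrane proteins that recruit TRAF adaptors or death-domain adaptors to their cytoplasmic tails. TNF acts through Tnfrsf1a, which most cells carry and which can lead to NF-kappaB activation or to cell death, and through Tnfrsf1b, which is found mainly on leukocytes and endothelium. In the lung, TNF is a product of activated alveolar macrophages and is known for raising leukocyte adhesion and vascular leak, while other members direct lymphoid organ structure (Lta, Ltb and Ltbr), the survival of B cells (Tnfsf13b and its receptors) and the costimulation of T cells (Tnfrsf4, Tnfrsf18 and Cd27).

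Recovered read totals were 6024093 to 31923838 per library. Values below are deposited values, which are reads divided by 1 size factor per library. A log2 change is on the log2(value + 1) scale with its standard error (SE) from limma, and a gene was called at an adjusted p under 0.05 over the 14908 genes tested. Alveolar type 2 markers summed to 262802 to 813211 over the 28 libraries, and none of them lacked this lung cell type. Neutrophil markers (9 of 10 found) summed to 2792 to 3214 in control_blank and 890 to 2614 in control_chronic, against 19705 to 33139.5 in healthy_VCV, 25623 to 34069 in healthy_noisy, 29985 to 116896 in acute_VCV and 23284 to 92659 in acute_noisy. The ventilated chronic groups held 9869 to 26153 at constant and 17302 to 32155 at variable volume. B and plasma cell markers (9 of 10 found) summed to 2806 to 3791 in control_blank, 816 to 2429 in healthy_VCV, 841 to 1269 in healthy_noisy, 1621 to 4087 in acute_VCV and 939 to 2142 in acute_noisy. In the chronic groups they summed to 1989.8 to 2984 unventilated, 342 to 1629.7 in chronic_VCV and 987 to 1439 in chronic_noisy. T and NK cell markers (11 of 12 found) summed to between 1724 and 5733 over all libraries. Macrophage markers (7 of 10 found) summed to 8728 to 9371 in control_blank and 8627 to 9695 in control_chronic, and to between 9525 and 20496 in the ventilated libraries. Endothelial markers (6 of 8 found) summed to 30263 to 44240 in control_blank and 57044 to 63408 in healthy_VCV, and lay between 35845 and 67269 elsewhere. Cardiac muscle markers (6 of 8 found) summed to 9427 to 16874 in control_blank and 6061 to 14886 in acute_VCV, against 328 to 1359 in healthy_noisy, 879.8 to 1221 in control_chronic and 262 to 618 in chronic_VCV. They lay at 1739 to 9106 in healthy_VCV, 231 to 8336 in acute_noisy and 2013 to 7800.2 in chronic_noisy, and the part of these lists in the member values was not tested. Cr2, Fpr1 and Mpo were at 0 in at least 1 library. In a bulk sample, more cells of a type and more RNA per cell cannot be told apart. The titles also carry 4 number series whose meaning is not stated, and acute_VCV against control_blank is the only one of the 12 comparisons between groups whose libraries all lie in 1 series. In most others series and group cannot be told apart. The acute_noisy libraries 047 and 050 carry another series than 046 and 053, and their fibroblast and smooth muscle sums were 121018 and 140252 against 61105 and 72724.

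**Figure D1:**
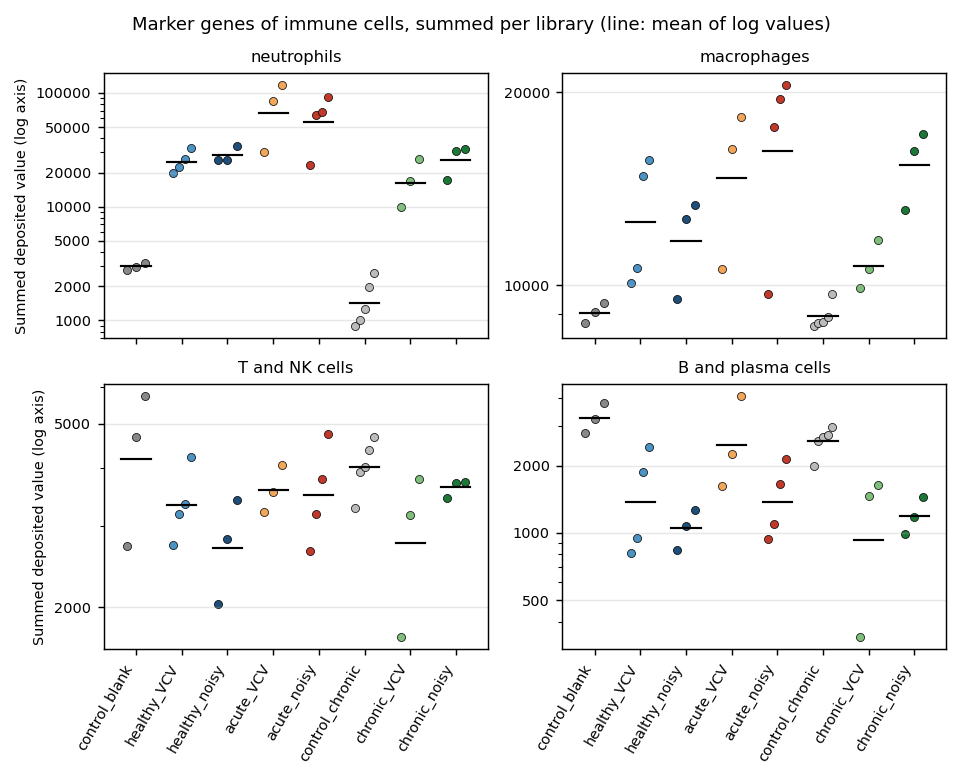
Summed deposited value (log axis) of the neutrophil, macrophage, T and NK cell and B and plasma cell marker lists in each of the 28 libraries, by group. The bar is at the mean of log values. Neutrophil sums were above every unventilated library in all ventilated libraries, and B and plasma cell sums ran from 341.8 in 1 chronic_VCV library to 4087 in 1 acute_VCV library.

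Of the 29 members, 27 had a mean of at least 10 and were tested, 7 ligands and 20 receptors. Constant ventilation of uninjured lungs changed 13 members, 6 higher and 7 lower, where 57.4% of all genes tested were called, 29.3% higher and 28.1% lower. Variable ventilation of uninjured lungs changed 5, 3 higher and 2 lower (32.1% of all genes, 17.5% higher and 14.6% lower). Against the same controls, acutely injured lungs had 13 members called under constant ventilation, 10 of them higher (37.3% of all genes, 20.6% higher and 16.7% lower), and 15 under variable ventilation, 10 of them higher (59.8% of all genes, 31.3% higher and 28.4% lower). The 5 comparisons with control_blank share its 3 libraries, so their counts are not independent. Chronic injury without ventilation changed 3 members, 1 higher and 2 lower (14.9% of all genes, 9.30% higher and 5.55% lower). Ventilation of chronically injured lungs changed 4 members at constant volume (2 higher, 2 lower, with 14.8% of all genes, 6.89% higher and 7.90% lower) and 4 at variable volume (2 higher, 2 lower, with 37.2% of all genes, 19.1% higher and 18.1% lower), both against control_chronic.

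Acute injury was also compared with uninjured lungs at the same mode of ventilation. Under constant ventilation 15 members were called, 11 higher and 4 lower (52.5% of all genes, 26.1% higher and 26.4% lower), and under variable ventilation 6, all higher (26.7% of all genes, 12.9% higher and 13.9% lower). The member median was 0.61 log2 under constant ventilation, beside -0.01 over all genes tested, and 0.38 under variable ventilation, beside 0.01. Against control_blank the member medians were -0.06 in healthy_VCV, -0.27 in healthy_noisy, 0.41 in acute_VCV and 0.24 in acute_noisy, beside all-gene medians of -0.03, 0.01, 0.07 and 0.03. The members' share of calls was within 10 percentage points of that of all genes in 8 of the 12 comparisons, and the members that moved are described by role. The mode itself, noisy against VCV, changed 1 member in uninjured lungs, higher (10.3% of all genes, 4.31% higher and 6.01% lower), 3 after acute injury, all lower (24.2% of all genes, 11.9% higher and 12.3% lower), and 1 after chronic injury, lower (2.43% of all genes, 0.563% higher and 1.86% lower). Tnfsf15 and Eda2r, a ligand of endothelium and a receptor for ectodysplasin A2, lay between 0 and 12.4 and between 0 and 13.2 and were not tested.

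**Figure D2:**
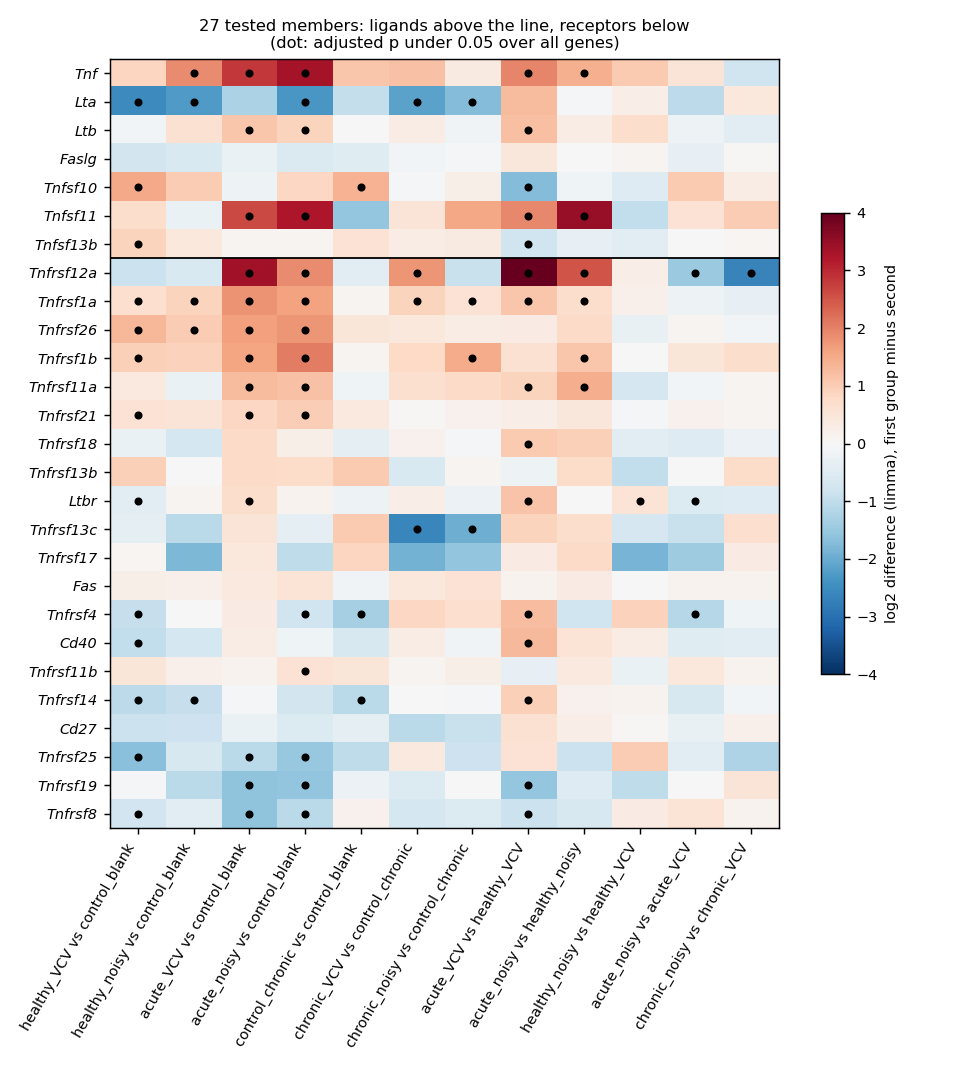
Log2 change of each of the 27 tested members (lines, ligands above receptors) in the 12 comparisons of groups (columns), with a mark where limma's adjusted p was under 0.05. Tnfrsf1a was higher and called in 8 of the comparisons, and Tnfrsf12a reached the highest value, 4.24, in acute_VCV against healthy_VCV.

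Tnf, Lta and Ltb lie side by side on rat chromosome 20, with no other protein-coding gene between neighbours in RefSeq's GRCr8 gene order. Their levels did not move alike in these lungs, so the promoters of all 3 are printed, from 250 bases before to 50 after the RefSeq start (24 of the 29 members have such an entry). They lie at chr20:3623277-3623576 (plus strand) for Lta, chr20:3626435-3626734 (plus strand) for Tnf and chr20:3634005-3634304 (minus strand) for Ltb, each given 5′ to 3′ on its own strand, and capitals mark matches to the NF-kappaB site consensus on either strand.
Lta: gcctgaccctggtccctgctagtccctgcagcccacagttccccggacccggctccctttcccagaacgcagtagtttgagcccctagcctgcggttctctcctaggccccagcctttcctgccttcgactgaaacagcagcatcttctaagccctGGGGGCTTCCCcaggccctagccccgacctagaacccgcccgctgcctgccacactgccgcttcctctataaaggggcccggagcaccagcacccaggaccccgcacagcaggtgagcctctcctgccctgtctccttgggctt
Tnf: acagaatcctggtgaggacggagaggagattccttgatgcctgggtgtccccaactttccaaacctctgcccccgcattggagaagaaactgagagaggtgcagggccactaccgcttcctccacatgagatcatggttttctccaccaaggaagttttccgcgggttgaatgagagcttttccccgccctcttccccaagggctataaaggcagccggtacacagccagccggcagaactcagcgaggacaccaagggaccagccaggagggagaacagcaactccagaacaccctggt
Ltb: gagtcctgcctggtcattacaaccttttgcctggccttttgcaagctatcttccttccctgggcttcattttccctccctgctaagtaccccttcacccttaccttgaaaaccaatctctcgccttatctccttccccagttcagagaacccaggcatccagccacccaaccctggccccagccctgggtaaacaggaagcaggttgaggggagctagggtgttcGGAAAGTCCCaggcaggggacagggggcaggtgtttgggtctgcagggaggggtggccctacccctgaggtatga
The capitals in Lta hold 2 overlapping matches. Over all 33469 RefSeq promoter windows of this length 7.51% hold a match, and 4 of the 24 member windows did (Lta, Ltb, Fas and Tnfrsf8). A match is a description of letters, not of a bound site.

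Tnf, the founding inflammatory cytokine of the family, was highest in the acutely injured lungs. It stood at 34.8, 47.02 and 36.8 in control_blank and at 43.1, 71.4, 71.0 and 122 in healthy_VCV. In healthy_noisy it was 193, 125 and 138, in acute_VCV 181, 295 and 428 and in acute_noisy 524, 922, 348 and 155. Every healthy_noisy and acutely injured library was above every control_blank library, while healthy_VCV overlapped them. Against control_blank, Tnf rose by 1.91 ± 0.50 log2 in healthy_noisy (adjusted p = 0.00688), 2.82 ± 0.50 in acute_VCV (0.000171) and 3.33 ± 0.47 in acute_noisy (5.93e-06), and its difference in healthy_VCV was 0.86 ± 0.47 (0.123). Against lungs ventilated the same way without injury, acute injury raised Tnf by 1.96 ± 0.47 under constant ventilation (adjusted p = 0.00132) and by 1.42 ± 0.47 under variable ventilation (0.03), where the groups overlapped. The latter call was lost without acute_noisy_047, acute_noisy_050, acute_noisy_046, healthy_noisy_061 or healthy_noisy_078, in a fit of only the groups compared, with number series as a covariate or within series 15 (log2 0.93 to 1.49, adjusted p over its alternatives 0.00215 to 0.604).

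In chronically injured lungs Tnf was 89.0, 113.01, 59.9, 124 and 63.2 unventilated, 337, 103 and 213 in chronic_VCV and 175, 77.2 and 102 in chronic_noisy, and all these groups overlapped, while control_chronic lay above control_blank. No comparison was called: the change was 1.12 ± 0.45 in control_chronic against control_blank (adjusted p = 0.0924), 1.17 ± 0.45 in chronic_VCV (0.0811) and 0.37 ± 0.45 in chronic_noisy against control_chronic (0.543).

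Lta, the lymphotoxin of lymphocytes, was lower in most ventilated groups. It was 112.65, 42.0 and 31.95 in control_blank, 9.94, 7.52, 11.4 and 5.53 in healthy_VCV and 13.1, 15.7 and 5.11 in healthy_noisy. In acute_VCV it was 45.01, 12.1 and 17.6 and in acute_noisy 9.92, 13.2, 5.06 and 13.4. Healthy_VCV, healthy_noisy and acute_noisy lay wholly below control_blank, and acute_VCV overlapped it. Lta fell by 2.55 ± 0.67 log2 in healthy_VCV (adjusted p = 0.00247), 2.27 ± 0.71 in healthy_noisy (0.0185) and 2.33 ± 0.67 in acute_noisy (0.00462), and its change in acute_VCV was -1.28 ± 0.71 (0.162). The healthy_noisy call was lost without control_blank_016 or healthy_noisy_078 (log2 -1.83 to -1.74, adjusted p over its alternatives 0.00587 to 0.122).

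After chronic injury Lta was 50.8, 19.8, 22.9, 13.5 and 48.2 unventilated, 10.7, 1.01 and 9.98 in chronic_VCV and 21.7, 7.18 and 2.39 in chronic_noisy. All chronic_VCV libraries lay below control_chronic, and chronic_noisy overlapped it. The gene fell by 2.15 ± 0.64 in chronic_VCV (adjusted p = 0.0255) and by 1.73 ± 0.64 in chronic_noisy (0.0368). The first of these was lost without chronic_VCV_069, control_chronic_113 or control_chronic_117, in a fit of only the groups compared or without the 2 control_chronic libraries of lowest depth (log2 -2.15 to -1.32, adjusted p over its alternatives 0.0208 to 0.216). The second was lost without chronic_noisy_079, chronic_noisy_084, control_chronic_113 or control_chronic_117, with edgeR or without the 2 control_chronic libraries of lowest depth (log2 -1.69 to -1.06, adjusted p over its alternatives 0.0113 to 0.275). B and plasma cell markers were called lower in 6, 6, 1 and 8 of 9 in healthy_VCV, healthy_noisy, acute_VCV and acute_noisy, and in 5 of 9 in both ventilated chronic groups, and their part in the Lta values was not tested.

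Ltb, the membrane lymphotoxin that pairs with Lta to bind Ltbr, rose in acute_VCV, and under variable ventilation the acutely injured and uninjured groups overlapped. It was 956, 986 and 536 in control_blank and 686, 535, 958 and 857 in healthy_VCV, against 1252, 1522 and 2592 in acute_VCV and 1671, 2886, 1246 and 776 in acute_noisy. Acute_VCV lay above both, and acute_noisy overlapped control_blank and also healthy_noisy, which held 1445.03, 1337 and 913. The change from healthy_noisy to acute_noisy was 0.28 ± 0.35 (adjusted p = 0.563). Ltb rose by 1.10 ± 0.38 in acute_VCV (adjusted p = 0.0253) and 0.88 ± 0.35 in acute_noisy against control_blank (0.0344), and by 1.1998 ± 0.35 in acute_VCV against healthy_VCV (0.00636). The acute_VCV call against control_blank was lost without control_blank_074 or acute_VCV_049 (log2 0.79 to 0.81, adjusted p over its alternatives 0.0155 to 0.159), and that against healthy_VCV without acute_VCV_049 (log2 0.90, adjusted p over its alternatives 0.00464 to 0.0587). The acute_noisy call was lost without control_blank_074, acute_noisy_047 or acute_noisy_046 or in a fit of only the groups compared (log2 0.56 to 0.88, adjusted p over its alternatives 0.00416 to 0.187). No chronic group was called for Ltb.

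**Figure D3:**
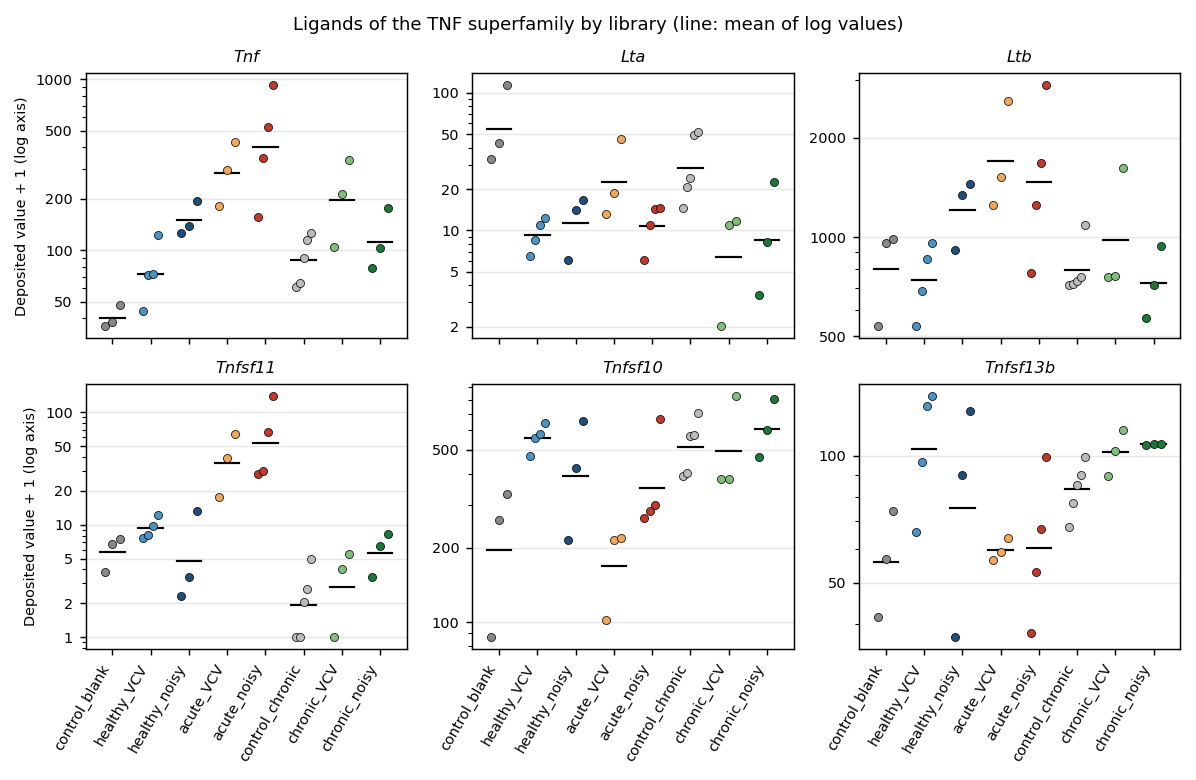
Deposited value + 1 (log axis) of the ligands Tnf, Lta, Ltb, Tnfsf11, Tnfsf10 and Tnfsf13b in each library by group, with a bar at the mean of log values. Tnf lay at 34.8 to 47.02 in control_blank and 155 to 922 in acute_noisy, while Lta lay at 5.06 to 13.4 in acute_noisy, under its control_blank libraries.

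Tnfsf11 (RANKL), the ligand that drives osteoclast formation and activates dendritic cells through Tnfrsf11a (RANK), was found almost wholly in the acutely injured lungs. It was 16.7, 63.1 and 37.9 in acute_VCV and 27.1, 66.2, 138 and 29.3 in acute_noisy, and between 0 and 12.3 in every other library. The gene passed the filter on mean value through these 2 groups, so its being called is not independent of that filter. It rose by 2.63 ± 0.75 in acute_VCV (adjusted p = 0.00826) and 3.22 ± 0.70 in acute_noisy (0.000467) over control_blank, which held 5.67, 2.77 and 6.39. Over lungs ventilated in the same mode without injury, it rose by 1.93 ± 0.70 under constant (0.024) and 3.50 ± 0.70 under variable ventilation (0.00175). The acute_VCV call over control_blank was lost without acute_VCV_045 (log2 2.20, adjusted p over its alternatives 0.00222 to 0.0524) and that over healthy_VCV without acute_VCV_045, acute_VCV_049 or healthy_VCV_025 (log2 1.4988 to 1.86, adjusted p over its alternatives 0.00368 to 0.128). The acute_noisy call over healthy_noisy was lost in a fit of only the groups compared or within series 15 (log2 2.63 to 3.50, adjusted p over its alternatives 0.000547 to 0.365).

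Its receptor Tnfrsf11a rose in the same groups. It was 245, 197 and 220.5 in control_blank, 439.5, 422 and 826 in acute_VCV and 433, 1053, 537 and 257 in acute_noisy. Both acute groups lay above control_blank. The rise was 1.28 ± 0.38 in acute_VCV (adjusted p = 0.01) and 1.18 ± 0.35 in acute_noisy (0.00591), lost for the former without acute_VCV_049 (log2 0.97, adjusted p over its alternatives 0.00699 to 0.0827) and for the latter in a fit of only the groups compared (log2 1.18, adjusted p over its alternatives 0.000473 to 0.0516). Over healthy_noisy, which held 205, 157 and 189, acute_noisy was higher by 1.45 ± 0.35 (0.0057), lost in a fit of only the groups compared, with number series as a covariate or within series 15 (log2 0.87 to 1.45, adjusted p over its alternatives 0.000402 to 0.375). Over healthy_VCV, at 252, 183, 469 and 319.9, acute_VCV was higher by 0.89 ± 0.35 with overlap (0.0367), lost without acute_VCV_049, healthy_VCV_025 or healthy_VCV_057 (log2 0.58 to 0.82, adjusted p over its alternatives 0.0126 to 0.224). Tnfrsf11b (osteoprotegerin), the secreted decoy that keeps Tnfsf11 from its receptor, was called only in acute_noisy against control_blank among the 12 comparisons, at 0.57 ± 0.25 and an adjusted p of 0.05 when rounded, with overlapping groups. The Tnfrsf11b call was lost without control_blank_016, acute_noisy_047, acute_noisy_050, acute_noisy_046 or acute_noisy_053, with a pseudocount of 10, with no filter on low values, with quantile normalization, in a fit of only the groups compared or with edgeR (log2 0.09 to 0.59, adjusted p over its alternatives 0.0109 to 0.717).

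Tnfsf10 (TRAIL), a ligand that can trigger apoptosis, was lower in acutely injured than in uninjured lungs under constant ventilation. It was 85.9, 258 and 329.9 in control_blank, 641, 558, 473 and 578 in healthy_VCV and 218, 215 and 101 in acute_VCV. In control_chronic it was 400.4, 573, 571, 391.97 and 705. Healthy_VCV and control_chronic lay above every control_blank library, 1 of which (control_blank_016) was much lower than the other 2, and acute_VCV lay below every healthy_VCV library. Tnfsf10 fell by 1.73 ± 0.42 in acute_VCV against healthy_VCV (adjusted p = 0.00156), a call kept under each alternative run, none of which tested number series. It rose by 1.52 ± 0.42 in healthy_VCV (0.004) and by 1.40 ± 0.41 in control_chronic (0.0258) over control_blank. The healthy_VCV call was lost without control_blank_016 (log2 0.94, adjusted p over its alternatives 0.00131 to 0.0709), and the control_chronic call without control_blank_016 or control_chronic_117, in a fit of only the groups compared, with edgeR or without the 2 control_chronic libraries of lowest depth (log2 0.82 to 1.47, adjusted p over its alternatives 0.00685 to 0.332). In acute_noisy the values were 281, 668, 264 and 297, where acute_noisy_047 stood apart. Acute_VCV overlapped control_blank, the other group of series 12, and Tnfsf10 was not called between them. Healthy_VCV and control_chronic lie in other series, and the part of series in the Tnfsf10 calls was not tested.

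Tnfsf13b (BAFF), a survival factor for B cells made by myeloid cells, was 40.5, 73.02 and 55.9 in control_blank, 138, 64.8, 131 and 95.6 in healthy_VCV and 62.8, 55.5 and 58.2 in acute_VCV. Healthy_VCV overlapped control_blank, and acute_VCV lay below every healthy_VCV library. The gene rose by 0.89 ± 0.34 in healthy_VCV (adjusted p = 0.0265), a call lost without control_blank_016, healthy_VCV_025 or healthy_VCV_060 or with quantile normalization (log2 0.68 to 0.78, adjusted p over its alternatives 0.00947 to 0.146), and fell by 0.80 ± 0.34 from healthy_VCV to acute_VCV (0.0495), a call lost without acute_VCV_040, acute_VCV_045, acute_VCV_049, healthy_VCV_025, healthy_VCV_060 or healthy_VCV_062, with no filter on low values or with quantile normalization (log2 -0.84 to -0.51, adjusted p over its alternatives 0.0182 to 0.206). Faslg, the killing ligand of T and NK cells, and Fas, its death receptor, were called in none of the 12 comparisons by limma, with 2 of 12 for Fas at an unadjusted p under 0.05. Fas came nearest, with 0.57 ± 0.23 in chronic_noisy against control_chronic (adjusted p = 0.0553) and 0.54 ± 0.24 in acute_noisy against control_blank (0.0601). Fas lay between 242 and 778 and Faslg between 22.3 and 112 over the 28 libraries.

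Tnfrsf1a (TNFR1), the death-domain receptor of TNF, rose with ventilation of uninjured and of chronically injured lungs and was higher again after acute injury. It was 1888, 2321 and 1895 in control_blank, 3081, 2756, 3602 and 3603 in healthy_VCV and 3878, 3307 and 4162 in healthy_noisy. In acute_VCV it was 6365, 7578 and 7241 and in acute_noisy 5547, 7724, 6827 and 4847. The 5 groups thus fell into 3 levels that did not overlap, with control_blank lowest and the acute groups highest. Over control_blank the rise was 0.68 ± 0.17 log2 in healthy_VCV (adjusted p = 0.00156), 0.89 ± 0.18 in healthy_noisy (0.000925), 1.7975 ± 0.18 in acute_VCV (7.14e-07) and 1.60 ± 0.17 in acute_noisy (2.82e-07). Acute injury added 1.12 ± 0.17 over constant (9.12e-06) and 0.70 ± 0.17 over variable ventilation (0.00518). The last of these calls was lost in a fit of only the groups compared, with number series as a covariate or within series 15 (log2 0.46 to 0.70, adjusted p over its alternatives 0.000877 to 0.448), and the others held under each alternative run.

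After chronic injury Tnfrsf1a was 1976, 2133, 2165, 2345 and 2359 unventilated, 5684, 3441 and 3515 in chronic_VCV and 3721, 2754 and 3469.8 in chronic_noisy. Both ventilated groups lay above control_chronic, by 0.90 ± 0.16 (adjusted p = 0.000862) and 0.59 ± 0.16 (0.00728), and these calls also held under each alternative. Chronic injury without ventilation differed from control_blank by 0.11 ± 0.16 (0.659), and the modes did not differ beyond their spread, with 0.22 ± 0.17 in uninjured (0.383), -0.20 ± 0.17 in acutely (0.399) and -0.32 ± 0.18 in chronically injured lungs (0.283).

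Tnfrsf1b (TNFR2), the leukocyte and endothelial receptor without a death domain, rose most in acute injury. It was 769.9, 1667 and 1440.3 in control_blank, 1803, 1655, 3240.1 and 3357 in healthy_VCV and 2853, 2816 and 1599.8 in healthy_noisy. In acute_VCV it was 2514, 3904 and 4891 and in acute_noisy 4953, 9291, 4939.5 and 2824. Both acute groups lay above control_blank, and both uninjured ventilated groups overlapped it. The rise over control_blank was 1.57 ± 0.37 in acute_VCV (adjusted p = 0.00217) and 2.04 ± 0.35 in acute_noisy (4.27e-05). In healthy_VCV it was 0.96 ± 0.35 (0.0223), lost without control_blank_016, healthy_VCV_060 or healthy_VCV_062 (log2 0.62 to 0.81, adjusted p over its alternatives 0.0126 to 0.18). Acute_noisy exceeded healthy_noisy by 1.10 ± 0.35 with overlap (0.0239), lost without acute_noisy_047, acute_noisy_050 or healthy_noisy_078, in a fit of only the groups compared, with number series as a covariate or within series 15 (log2 0.67 to 1.11, adjusted p over its alternatives 0.00328 to 0.572).

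In chronic injury Tnfrsf1b was 1344, 1465, 1409.8, 1219.7 and 1213 unventilated, 2974, 1504.99 and 2702 in chronic_VCV and 3313, 3155 and 4985 in chronic_noisy. All ventilated libraries lay above control_chronic, and the rise was called under variable ventilation, at 1.49 ± 0.33 (adjusted p = 0.00191), where constant ventilation gave 0.79 ± 0.33 (0.11). The 2 modes themselves differed by 0.70 ± 0.37 (0.253), which was not called. Neutrophil markers were called higher in 7 or 8 of 9 in each ventilated group against its unventilated control. Tnf was not called in healthy_VCV and both ventilated chronic groups, and Tnfrsf1b was not in healthy_noisy and chronic_VCV. Of these, Tnfrsf1b in healthy_noisy and both genes in chronic_VCV were at an unadjusted p under 0.05 by limma. Tnf in healthy_VCV and chronic_noisy was not. Macrophage markers were called higher in 5, 4, 5 and 5 of 7 in healthy_VCV, healthy_noisy, acute_VCV and acute_noisy, with 1 lower in each, and in 2 and 5 of 7 in chronic_VCV and chronic_noisy. Of the 6 endothelial markers 4 were called higher and 1 lower in healthy_VCV. Counted either way, 1 was called in healthy_noisy, 2 in acute_VCV and 4 in acute_noisy against control_blank. Against control_chronic 0 were called in chronic_VCV and 2 in chronic_noisy. The part of these cells in the values was not tested.

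Tnfrsf12a (Fn14), the receptor of the cytokine TWEAK and an early gene of injured epithelium and fibroblasts, had the largest change of any member in the 12 comparisons. It was 585, 452 and 392.24 in control_blank, 250.2, 273, 237 and 265 in healthy_VCV and 242, 303 and 389 in healthy_noisy. In acute_VCV it was 5314, 4044 and 5301 and in acute_noisy 1194, 2575, 1975 and 1546. Acute_VCV lay above acute_noisy, and both lay above all uninjured lungs. Over control_blank the rise was 3.36 ± 0.42 in acute_VCV (10.3-fold, adjusted p = 5.53e-06) and 1.90 ± 0.39 in acute_noisy (0.0003). Over lungs ventilated in the same mode it was 4.24 ± 0.39 under constant (18.9-fold, 3.3e-08) and 2.52 ± 0.39 under variable ventilation (0.000342). These 4 calls held under each alternative run. Ventilation of uninjured lungs gave -0.87 ± 0.39 at constant (0.0611) and -0.62 ± 0.42 at variable volume (0.266), neither called.

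After chronic injury Tnfrsf12a was 321, 406, 337, 370.1 and 341 unventilated, 3308, 433 and 1259 in chronic_VCV and 302, 147 and 158 in chronic_noisy. All chronic_VCV libraries lay above control_chronic although they spread widely, and all chronic_noisy libraries lay below it. Constant ventilation raised the gene by 1.78 ± 0.38 (adjusted p = 0.00329), a call kept under each alternative run, with log2 changes from 1.06 to 2.52 over them, and variable ventilation gave -0.88 ± 0.38 (0.068). The lowest of these came without chronic_VCV_067 and the highest without chronic_VCV_069. Tnfrsf12a was lower under variable than under constant ventilation in both injured states, and the difference was -1.47 ± 0.39 after acute (0.0116) and -2.66 ± 0.42 after chronic injury (0.00687). The modes lie in different number series in both states. Only the chronic call was fitted with series as a covariate, where it was kept, and after acute injury mode and series cannot be told apart. The acute call was lost without acute_VCV_040 or in a fit of only the groups compared (log2 -1.47 to -1.40, adjusted p over its alternatives 0.0107 to 0.0669) and the chronic call in a fit of only the groups compared (log2 -2.66, adjusted p over its alternatives 7.59e-06 to 0.111). Airway secretory markers summed to 151439 to 390860 in chronic_VCV against 389521 to 649908 in control_chronic, and fibroblast and smooth muscle markers to 70022 to 205884 against 39805 to 82679, and their part in the Tnfrsf12a values was not tested. Its ligand Tnfsf12 was not analysed here.

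The Tnfrsf12a promoter is printed because this receptor moved most, at chr10:13213599-13213898 (minus strand) in RefSeq's GRCr8, with that of Tnfrsf1b at chr5:162387362-162387661 (minus strand), in which capitals mark an AP-1 motif.
Tnfrsf12a: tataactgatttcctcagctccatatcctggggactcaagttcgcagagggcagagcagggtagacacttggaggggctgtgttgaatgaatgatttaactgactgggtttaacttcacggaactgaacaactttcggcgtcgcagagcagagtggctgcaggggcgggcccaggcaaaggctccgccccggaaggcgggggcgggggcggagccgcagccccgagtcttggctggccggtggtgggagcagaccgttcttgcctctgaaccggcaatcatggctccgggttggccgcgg
Tnfrsf1b: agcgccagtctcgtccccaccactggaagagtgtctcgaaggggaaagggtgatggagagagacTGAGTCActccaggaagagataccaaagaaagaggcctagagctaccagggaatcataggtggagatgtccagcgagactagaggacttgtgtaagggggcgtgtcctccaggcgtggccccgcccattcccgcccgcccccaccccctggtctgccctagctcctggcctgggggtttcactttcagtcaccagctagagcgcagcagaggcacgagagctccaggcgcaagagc
The AP-1 letters searched were TGANTCA on both strands, found in 7.33% of all windows of this length and in 3 of 24 member windows (Tnfrsf1b, Fas and Tnfrsf8). The CArG box, the site of serum response factor, was found in 1.64% of all windows and in 1 member window (Tnfrsf17). The Tnfrsf12a window holds none of these 3 motifs in these letters.

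Ltbr, the receptor of the Lta and Ltb heterotrimer that stromal and epithelial cells carry, differed between the modes of ventilation in uninjured and in acutely injured lungs. It was 5999, 4327 and 3865 in control_blank, 3449.9, 3227, 3636 and 3515 in healthy_VCV and 4615, 5198 and 5277 in healthy_noisy. In acute_VCV it was 7561, 7659 and 7445 and in acute_noisy 4429, 5144, 4956 and 6075. Among these 5 groups healthy_VCV was lowest and acute_VCV highest with no overlap, and healthy_noisy and acute_noisy lay between them. After chronic injury Ltbr was 4102, 3793, 3842, 4387 and 3910.0 unventilated, 6264, 4408 and 4094 in chronic_VCV and 3903, 3041 and 3312 in chronic_noisy, and neither ventilated group was called against control_chronic. Ltbr rose by 1.13 ± 0.14 from healthy_VCV to acute_VCV (adjusted p = 1.03e-06) and by 0.70 ± 0.15 from control_blank to acute_VCV (0.000969), both kept under each alternative run. It fell by 0.43 ± 0.14 in healthy_VCV against control_blank (0.0131), lost without control_blank_016 (log2 -0.24, adjusted p over its alternatives 0.00341 to 0.167). Variable against constant ventilation gave 0.54 ± 0.14 in uninjured lungs (0.032) and -0.56 ± 0.14 after acute injury (0.00852). After acute injury the modes lie in different number series, so mode and series cannot be told apart there. The uninjured call was lost without healthy_VCV_025, healthy_VCV_057, healthy_VCV_060, healthy_noisy_029, healthy_noisy_061 or healthy_VCV_062, with number series as a covariate or within series 15 (log2 0.51 to 0.60, adjusted p over its alternatives 0.00506 to 0.43), and the acute call in a fit of only the groups compared (log2 -0.56, adjusted p over its alternatives 0.00387 to 0.0658).

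**Figure D4:**
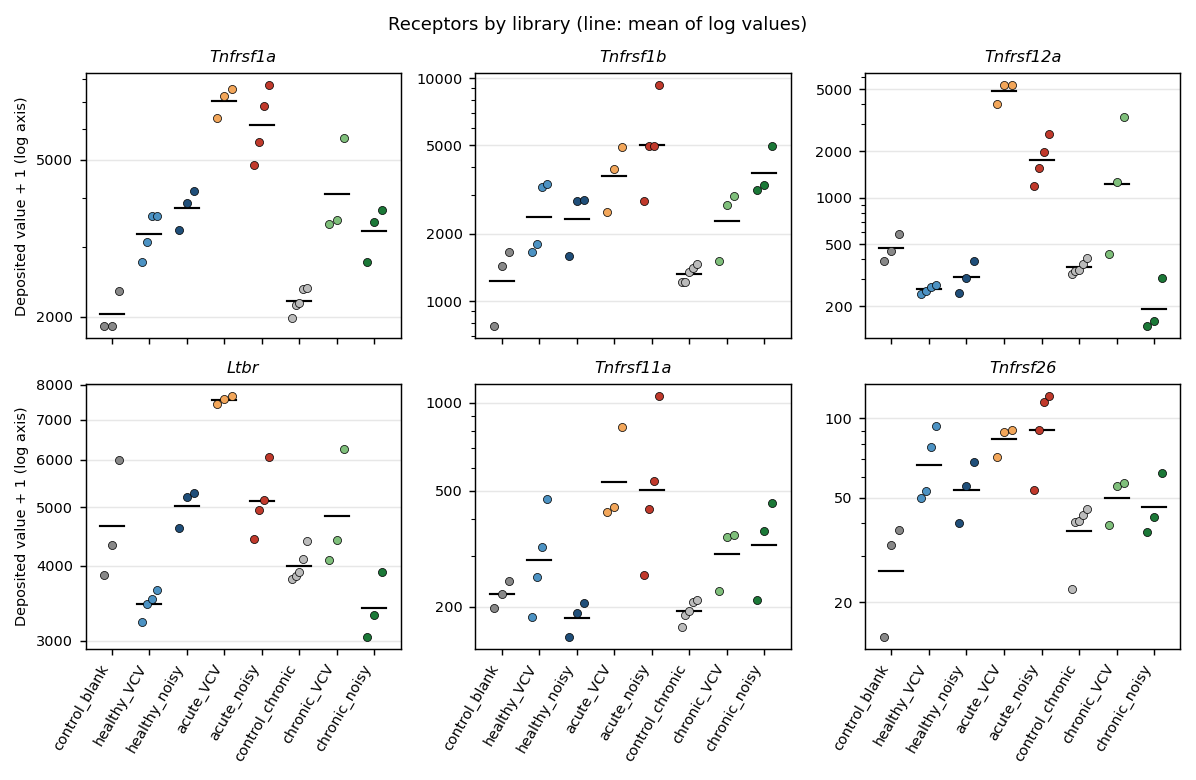
Deposited value + 1 (log axis) of the main signalling receptors in each library by group, with a bar at the mean of log values. Tnfrsf12a lay at 4044 to 5314 in acute_VCV and 1194 to 2575 in acute_noisy, and its 3 chronic_VCV libraries spread from 433 to 3308.

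Tnfrsf21 (DR6), a death-domain receptor, was 786, 930.4 and 810.0 in control_blank, 1040.4, 1352, 1254 and 1381 in healthy_VCV, 1148, 1842 and 1557 in acute_VCV and 1466, 1533, 2159 and 1611 in acute_noisy. These 3 ventilated groups lay above control_blank, by 0.57 ± 0.20 (adjusted p = 0.0188), 0.82 ± 0.22 (0.00452) and 0.99 ± 0.20 (0.00024). The healthy_VCV call was lost without control_blank_016 (log2 0.52, adjusted p over its alternatives 0.0067 to 0.0694). Tnfrsf26, a rodent receptor with close copies among which reads could be split, was 13.8, 32.1 and 36.8 in control_blank and rose in all 4 comparisons of ventilated with unventilated lungs that share it. The rise was 1.33 ± 0.34 in healthy_VCV (0.00212), 1.01 ± 0.36 in healthy_noisy (0.0367), 1.66 ± 0.36 in acute_VCV (0.00114) and 1.78 ± 0.34 in acute_noisy (0.000133). The healthy_noisy call was lost without control_blank_016, healthy_noisy_061 or healthy_noisy_078, with quantile normalization, in a fit of only the groups compared or with edgeR (log2 0.60 to 1.01, adjusted p over its alternatives 0.016 to 0.265). Tnfrsf19 (TROY), a receptor of epithelial progenitors, is named after its values were seen. It was 27.6, 24.9 and 51.1 in control_blank, 14.4, 6.38 and 11.1 in acute_VCV and 6.31, 19.9, 7.59 and 11.0 in acute_noisy, lower in both without overlap. It fell by 1.60 ± 0.61 in acute_VCV (0.0407), lost without control_blank_074, control_blank_016, control_blank_021, acute_VCV_045 or acute_VCV_049 or with quantile normalization (log2 -1.79 to -1.29, adjusted p over its alternatives 0.0234 to 0.154), by 1.59 ± 0.57 in acute_noisy (0.0189), lost without control_blank_074 or acute_noisy_046 (log2 -1.39 to -1.28, adjusted p over its alternatives 0.0103 to 0.0889), and by 1.54 ± 0.57 from healthy_VCV to acute_VCV (0.0253), lost without acute_VCV_045, healthy_VCV_025 or healthy_VCV_057 or with quantile normalization (log2 -1.42 to -1.25, adjusted p over its alternatives 0.00721 to 0.118).

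Receptors of lymphocytes and antigen-presenting cells numbered 10 (Cd27, Cd40, Tnfrsf4, Tnfrsf8, Tnfrsf13b, Tnfrsf13c, Tnfrsf14, Tnfrsf17, Tnfrsf18 and Tnfrsf25), of which 5 fell in healthy_VCV against control_blank, while 4 rose and 1 fell from healthy_VCV to acute_VCV. Counted either way, these shares are near the 57.4% and 52.5% of all genes called in the same comparisons. By direction, 28.1% of all genes were lower in the first, and 26.1% were higher and 26.4% lower in the second. Cd40, the receptor by which B cells and dendritic cells receive T cell help, was 452, 519 and 315 in control_blank, 235, 127, 257 and 253 in healthy_VCV and 622, 365 and 611 in acute_VCV. Healthy_VCV lay below both. Elsewhere Cd40 averaged 259 in healthy_noisy, 393 in acute_noisy, 272 in control_chronic, 368 in chronic_VCV and 249 in chronic_noisy. Control_blank (mean 429) and acute_VCV (mean 533), the groups of series 12, had the highest means, and the part of series was not tested. Cd40 fell by 0.9969 ± 0.31 in healthy_VCV against control_blank (adjusted p = 0.00913), lost without control_blank_021 (log2 -0.84, adjusted p over its alternatives 0.00431 to 0.0519), and rose by 1.30 ± 0.31 from there to acute_VCV (0.00133), kept under each alternative run. Tnfrsf14 (HVEM), which Tnfsf14 and Lta bind, was 659.7, 943 and 848 in control_blank, 474, 319, 418 and 378 in healthy_VCV, 1049.6, 592 and 705 in acute_VCV and 359, 515, 396, 404 and 276 in control_chronic. Healthy_VCV and control_chronic lay below control_blank, and acute_VCV overlapped it. Healthy_noisy (283 to 598) and acute_noisy (425 to 557) lay below control_blank too, and chronic_noisy held 318 to 456 and chronic_VCV 176 to 741. Mean Tnfrsf14 was 817 in control_blank and 782 in acute_VCV, the groups of series 12, and 366 to 487 in every other group. The part of series in the Tnfrsf14 calls was not tested. Tnfrsf14 fell by 1.04 ± 0.32 in healthy_VCV (0.00902), kept under each alternative, and by 1.08 ± 0.31 in control_chronic (0.0254), lost without control_blank_016, control_blank_021 or control_chronic_117 or without the 2 control_chronic libraries of lowest depth (log2 -1.22 to -0.96, adjusted p over its alternatives 0.0173 to 0.0913). In healthy_noisy it fell by 0.91 ± 0.35 (0.0481), lost without control_blank_074, control_blank_016, control_blank_021, healthy_noisy_029 or healthy_noisy_078, with no filter on low values or in a fit of only the groups compared (log2 -1.05 to -0.61, adjusted p over its alternatives 0.0278 to 0.233). From healthy_VCV to acute_VCV it rose by 0.95 ± 0.32 (0.0171), lost without acute_VCV_040 (log2 0.72, adjusted p over its alternatives 0.00415 to 0.11).

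Tnfrsf4 (OX40), a costimulator of activated T cells, was 99.7, 42.0 and 48.7 in control_blank, 24.8, 30.1, 45.6 and 26.1 in healthy_VCV and 64.0, 65.1 and 49.1 in healthy_noisy. It was 71.7, 65.7 and 85.0 in acute_VCV, 33.4, 23.2, 32.9 and 47.7 in acute_noisy and 28.6, 19.8, 19.1, 26.9 and 20.4 in control_chronic. Every acute_VCV library lay above every healthy_VCV and acute_noisy library, and control_chronic lay below control_blank. Tnfrsf4 rose by 1.24 ± 0.33 from healthy_VCV to acute_VCV (adjusted p = 0.00303), kept under each alternative run, none of which tested number series. Acute_VCV overlapped control_blank, the other group of series 12, and lay just above healthy_noisy of series 15. The part of series in the Tnfrsf4 calls was not tested. Tnfrsf4 fell by 1.34 ± 0.31 in control_chronic (0.0101), lost without control_blank_016 (log2 -0.97, adjusted p over its alternatives 0.00607 to 0.155). Acute_noisy was lower than acute_VCV by 1.13 ± 0.33 (0.0173), lost without acute_VCV_040, acute_VCV_049 or acute_noisy_047 or in a fit of only the groups compared (log2 -1.15 to -0.96, adjusted p over its alternatives 0.00827 to 0.0712). Overlapping falls against control_blank came in healthy_VCV, by 0.92 ± 0.33 (0.0203) and lost without control_blank_016, healthy_VCV_025 or healthy_VCV_062 or in a fit of only the groups compared (log2 -0.92 to -0.54, adjusted p over its alternatives 0.005 to 0.199), and in acute_noisy, by 0.81 ± 0.33 (0.0375) and lost without control_blank_016, acute_noisy_047, acute_noisy_050 or acute_noisy_046 or in a fit of only the groups compared (log2 -0.81 to -0.44, adjusted p over its alternatives 0.0168 to 0.3).

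Tnfrsf18 (GITR), the neighbour of Tnfrsf4 on chromosome 5 and a receptor of regulatory T cells, was 74.6, 60.1, 88.5 and 54.5 in healthy_VCV and 153, 136 and 136 in acute_VCV, without overlap. It rose there by 1.04 ± 0.38 (adjusted p = 0.0234), lost without acute_VCV_040, healthy_VCV_057 or healthy_VCV_062 (log2 0.93 to 0.98, adjusted p over its alternatives 0.00225 to 0.0685), and was called in no other of the 12 comparisons. Tnfrsf8 (CD30), a receptor of activated lymphocytes, was 188, 164 and 167 in control_blank, 91.9, 101, 92.9 and 123 in healthy_VCV, 62.2, 72.7 and 37.9 in acute_VCV and 137, 72.0, 59.9 and 75.8 in acute_noisy. All 3 lay below control_blank, and acute_VCV lay below healthy_VCV too. Tnfrsf8 fell by 1.62 ± 0.33 in acute_VCV (0.000542) and 1.07 ± 0.31 in acute_noisy (0.0048), both kept under each alternative run. It fell by 0.76 ± 0.31 in healthy_VCV (0.0381), lost without control_blank_074, control_blank_016, control_blank_021, healthy_VCV_025, healthy_VCV_057 or healthy_VCV_060 (log2 -0.80 to -0.70, adjusted p over its alternatives 0.00698 to 0.112), and by 0.86 ± 0.31 from healthy_VCV to acute_VCV (0.022), lost without acute_VCV_049 or healthy_VCV_062 or with quantile normalization (log2 -0.77 to -0.59, adjusted p over its alternatives 0.0153 to 0.153). Tnfrsf8 thus fell from healthy_VCV to acute_VCV where Tnfrsf4 and Cd40 rose.

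Tnfrsf25 (DR3), a death-domain receptor of T cells, was 607, 413 and 283 in control_blank, 112, 137, 154 and 122 in healthy_VCV, 257, 169.6 and 171 in acute_VCV and 163, 91.9, 91.1 and 319 in acute_noisy. Healthy_VCV and acute_VCV lay below control_blank, and acute_noisy_053 reached into its range. Tnfrsf25 fell by 1.66 ± 0.39 in healthy_VCV (adjusted p = 0.000901) and 1.51 ± 0.39 in acute_noisy (0.00194), kept under each alternative run, and by 1.08 ± 0.41 in acute_VCV (0.0427), lost without control_blank_016, control_blank_021, acute_VCV_045 or acute_VCV_049 or with quantile normalization (log2 -1.08 to -0.80, adjusted p over its alternatives 0.0224 to 0.188). Cd27, a costimulator of T cells and a marker of memory B cells, was called by limma in none of the 12 comparisons, with 1 of 12 at an unadjusted p under 0.05, and lay between 18.2 and 278. T and NK cell markers were called lower in 4 of 11 in healthy_VCV, 8 in healthy_noisy and 6 in acute_noisy against control_blank by limma, with 1 higher in healthy_VCV and 1 in acute_noisy. In acute_VCV 0 of 11 were called by limma, 1 at an unadjusted p under 0.05 and 0 by edgeR. Their sums there were 3219 to 4069 (mean 3613), against 2716 to 5733 (mean 4379) in control_blank, so lower on average with overlap. The part of these cells in the receptor values was not tested.

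Of the receptors of BAFF and its relative APRIL on B cells and plasma cells, Tnfrsf13c (BAFF-R) fell with ventilation of chronically injured lungs. It was 57.2, 35.7, 26.7, 23.6 and 23.6 in control_chronic, 4.59, 1.01 and 12.2 in chronic_VCV and 5.42, 5.39 and 13.5 in chronic_noisy. Both ventilated groups lay below every control_chronic library. Tnfrsf13c fell by 2.61 ± 0.57 in chronic_VCV (adjusted p = 0.00386), kept under each alternative run, and by 1.95 ± 0.57 in chronic_noisy (0.0103), lost without the 2 control_chronic libraries of lowest depth (log2 -1.60, adjusted p over its alternatives 0.00321 to 0.0618). In 5 of 9 B and plasma cell markers the same comparisons were called lower, and the part of B cells was not tested. Tnfrsf13b (TACI) and Tnfrsf17 (BCMA) were called by limma in none of the 12 comparisons, and lay between 1.31 and 19.0 and between 0 and 41.3. Tnfsf13, which encodes APRIL, was not analysed here, and neither were Tnfrsf9 and Tnfrsf10b.

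**Figure D5:**
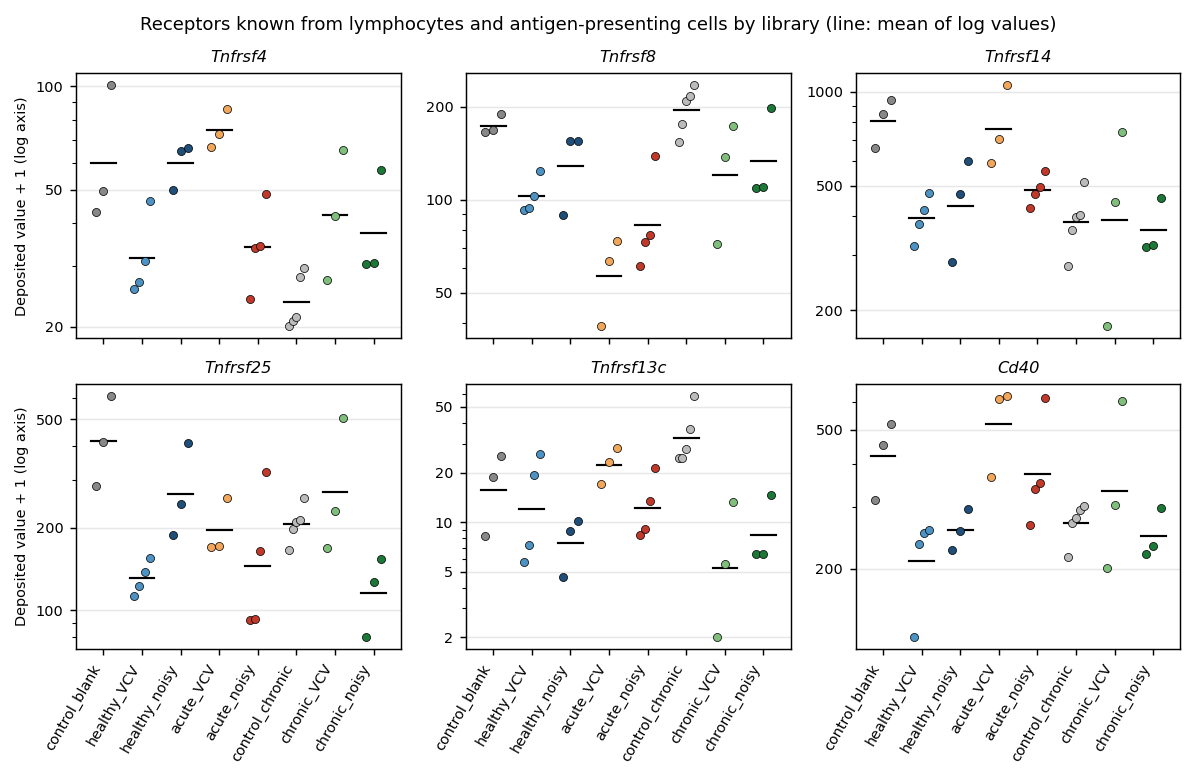
Deposited value + 1 (log axis) of the receptors Tnfrsf4, Tnfrsf8, Tnfrsf14, Tnfrsf25, Tnfrsf13c and Cd40 in each library by group, with a bar at the mean of log values. Tnfrsf4 lay at 65.7 to 85.0 in acute_VCV and 23.2 to 47.7 in acute_noisy, and Tnfrsf13c at 23.6 to 57.2 in control_chronic against 1.01 to 12.2 in chronic_VCV.

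The signalling genes downstream of these receptors were followed as a list of 41 adaptors, kinases, death genes and NF-kappaB genes, of which 31 were found and tested. In acutely injured lungs 23 of 31 rose under constant ventilation, and 26 rose and 1 fell under variable ventilation, against control_blank, beside the 37.3% and 59.8% of all genes called either way. By direction, 20.6% of all genes were higher and 16.7% lower under constant, and 31.3% and 28.4% under variable ventilation. The median of the list was 0.75 and 1.06 log2. In acute_VCV the genes that changed most were Bcl3 (3.22), an NF-kappaB cofactor, Birc3 (2.54), a ubiquitin ligase that limits cell death, Ripk3 (2.35), the kinase of necroptosis, Bid (1.66), which carries the death signal to mitochondria, Tnip2 (1.52), an NF-kappaB inhibitor, and Nfkb2 (1.45), an NF-kappaB subunit. In acute_noisy they were Bcl3 (3.04), Birc3 (2.82), Ripk3 (1.9972), Traf6 (1.72), Nfkbie (1.71) and Rel (1.66). Bcl3 and Birc3, both known NF-kappaB targets, led in both.

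Without acute injury fewer of these genes were called. Against control_blank 15 of 31 rose and 1 fell in healthy_VCV (51.6% called, beside 57.4% of all genes), and 10 rose in healthy_noisy (32.3%, beside 32.1%). Counted either way, these shares were near or below those of all genes, but nearly all calls in the list were rises. By direction, 29.3% of all genes were higher and 28.1% lower in healthy_VCV, and 17.5% and 14.6% in healthy_noisy. Chronic injury alone raised 1 (Traf6, 0.97), where 14.9% of all genes were called. Ventilation after chronic injury raised 7 at constant (22.6% called, beside 14.8%) and 11 at variable volume, where 2 were lower (41.9%, beside 37.2%), and Bcl3 led in both at 2.03 and 1.63. Of all genes, 6.89% were higher and 7.90% lower at constant volume, and 19.1% and 18.1% at variable volume. Acute injury raised 15 and lowered 2 over healthy_VCV (54.8% called, beside 52.5%), and raised 15 over healthy_noisy (48.4%, beside 26.7%), with Bcl3 at 1.86 and 1.24. Counted either way, the share over healthy_VCV was near that of all genes. By direction, 26.1% of all genes were higher and 26.4% lower over healthy_VCV, and 12.9% and 13.9% over healthy_noisy.

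Whether a response differed between injury states was tested as a difference of comparisons. The response to constant ventilation differed between chronically injured and uninjured lungs for 6 members, 5 of them more positive after chronic injury (23.9% of all genes, 9.92% higher and 14.0% lower). For Tnfrsf12a the difference was 2.65 ± 0.55 (adjusted p = 0.00519), from -0.87 in uninjured to 1.78 in chronically injured lungs, and held under each alternative run. Without control_blank_016 or without chronic_VCV_067 the count fell to 1 member. The same difference for variable ventilation was called for 0 members by limma (2.66% of all genes, 0.966% higher and 1.69% lower), 0 by edgeR and 1 (Tnf) at an unadjusted p under 0.05.

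The effect of mode, noisy minus VCV, differed between acutely injured and uninjured lungs for 5 members, 1 more positive and 4 more negative after acute injury (39.0% of all genes, 19.6% higher and 19.4% lower). For Ltbr the mode effect was 0.54 in uninjured and -0.56 in acutely injured lungs, a difference of -1.10 ± 0.20 (adjusted p = 0.000605). For Tnfrsf4 it went from 0.92 to -1.13, a difference of -2.04 ± 0.46 (0.00196), and for Tnfrsf12a from 0.25 to -1.47, a difference of -1.72 ± 0.56 (0.0179). These 3 held under each alternative run, none of which tested number series. The other members called for a difference were Cd40, Ltbr, Tnfrsf4, Tnfrsf25 and Tnfrsf13c for constant ventilation and Tnfrsf25 and Tnfsf10 for mode.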

How the data were processed

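Poly(A) RNA from 28 lung samples was made into strand-specific libraries by the dUTP method, pooled and sequenced on an Illumina HiSeq instrument, per the labels' protocols. The submitters' processing notes list CASAVA 1.8.0, BWA, bedtools 2.11, DESeq 1.8.3 and build rn4, without role or order, and the gene annotation is Ensembl version 67 per the file headers. Whether counting used strand is not given in the sources used here, so overlapping and antisense genes cannot be told apart. The authors deposited 1 table of signal per gene and library, and all its value columns were used. It was checked on the values: at least 99.994% of nonzero values per library were whole multiples of 1 step within 0.1 read, so the signal is reads divided by a size factor, and dividing by the step recovers whole reads.

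Genes with a mean of at least 10 over the 28 libraries (14908) were taken as log2(value + 1) and tested by limma (version 3.58.1, R 4.3.3) with trend and robust settings, 1 mean per group, two-sided, with Benjamini-Hochberg adjustment over all genes of a comparison and a threshold of 0.05. A log2 change understates the change of low genes. The 15 comparisons were 12 between groups and 3 differences of these. Alternatives were a pseudocount of 10, no filter, quantile normalization, only the groups compared, number series as a covariate, only series 12 or 15, each library left out, the quasi-likelihood test of edgeR (version 4.0.16) on the recovered reads and, chosen after seeing the data, leaving out the 2 control_chronic libraries of lowest depth. The fits were tested on simulated data. No replicates held the same counts (chi-square per gene at least 15.3). An adjusted p is limma's unless another tool is named.

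The members, gene lists and tests were chosen with earlier results of these data known. Named members were a fixed list plus those called without overlap whose higher group averaged 50 or more, and of the signalling list up to 6 with the largest called change. List genes not found under a current symbol were matched by RefSeq synonym. Promoters come from RefSeq's GRCr8 table, matched by symbol, and no coordinate of build rn4 is given. Tables and plots used Python 3.11.15, pandas 2.3.3 and matplotlib 3.10.9.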

Additional observations from a re-analysis of the deposited data

Results flagged for a closer look

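In 4 of 87 sets of 4 or 5 libraries (29 members in 3 groups), 1 library stood apart from the rest of its group by Dixon's 95% criterion, which chance meets about 1 in 20 times. Cd40 was 126.8 in healthy_VCV_057, where the other 3 libraries lay at 235 to 257. Ltb was 1084 in control_chronic_113, where the other 4 lay at 717 to 754. Tnfrsf26 was 21.4 in control_chronic_117, against 39.5 to 44.5, and Tnfsf10 was 668 in acute_noisy_047, against 264 to 297.

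The response to constant ventilation, chronically injured minus uninjured lungs, differed by limma's test of the difference for 6 members. The difference was 1.29 for Cd40 (adjusted p = 0.034), 0.70 for Ltbr (0.0155), 2.65 for Tnfrsf12a (0.00519), 2.05 for Tnfrsf25 (0.0115), 1.75 for Tnfrsf4 (0.0111) and -2.23 for Tnfrsf13c (0.0498). For Cd40, Tnfrsf25 and Tnfrsf4 the response was -0.9969, -1.66 and -0.92 in uninjured and 0.30, 0.39 and 0.84 in chronically injured lungs. The Tnfrsf12a difference was kept under each alternative run, the Ltbr call was lost without control_blank_016 or chronic_VCV_067 (log2 0.51 to 0.52, adjusted p over its alternatives 0.00345 to 0.0842), the Tnfrsf25 call without control_blank_016 or chronic_VCV_067 (log2 1.60 to 1.77, adjusted p over its alternatives 0.00369 to 0.0592) and the Tnfrsf4 call without control_blank_016 or chronic_VCV_067 (log2 1.38 to 1.44, adjusted p over its alternatives 0.00471 to 0.0626). The Cd40 call was lost without control_blank_016, control_blank_021, healthy_VCV_057, chronic_VCV_067 or control_chronic_115 or without the 2 control_chronic libraries of lowest depth (log2 0.86 to 1.31, adjusted p over its alternatives 0.00863 to 0.157). The Tnfrsf13c call was lost without control_blank_074, control_blank_016, control_blank_021, healthy_VCV_025, healthy_VCV_060, chronic_VCV_067, chronic_VCV_069, control_chronic_113, control_chronic_114, control_chronic_115 or control_chronic_117, with no filter on low values, with quantile normalization, in a fit of only the groups compared, with edgeR or without the 2 control_chronic libraries of lowest depth (log2 -2.57 to -1.53, adjusted p over its alternatives 0.019 to 0.153).

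The effect of mode, acutely injured minus uninjured lungs, differed for 5 members. The difference was -1.10 for Ltbr (adjusted p = 0.000605), -1.72 for Tnfrsf12a (0.0179), -1.45 for Tnfrsf25 (0.0382), -2.04 for Tnfrsf4 (0.00196) and 1.57 for Tnfsf10 (0.0413). For Tnfsf10 the mode effect was -0.52 in uninjured and 1.05 in acutely injured lungs, and for Tnfrsf25 1.02 and -0.43. The Tnfrsf25 call was lost without acute_VCV_040, healthy_VCV_025, acute_noisy_047, acute_noisy_050, healthy_noisy_029, healthy_noisy_061 or healthy_VCV_062, in a fit of only the groups compared or with edgeR (log2 -1.52 to -1.14, adjusted p over its alternatives 0.00447 to 0.131), and the Tnfsf10 call without acute_VCV_049, healthy_VCV_025, acute_noisy_047, healthy_VCV_057, healthy_noisy_029, healthy_noisy_061 or healthy_VCV_062 or with quantile normalization (log2 1.14 to 1.62, adjusted p over its alternatives 0.0163 to 0.158).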

How the results depend on the processing

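Of 83 member calls in the 12 comparisons of groups, 38 were kept under each alternative run for them, and of 11 calls of differences 4 were, with 0 changes of sign. Number series as a covariate was fitted for 21 of all these calls, of which 16 were kept and 5 lost. Of the 21, 13 were in acute_VCV against control_blank, where both groups lie in series 12 and series cannot differ. The calls outside these 21, including all differences, had no alternative that set them against series. No paired analysis was possible because library numbers never repeat between groups. With quantile normalization 2 members were called for mode in uninjured lungs (in place of 1) and 2 for mode after chronic injury (in place of 1), and it moved the median of all genes from -0.03 to -0.13 in healthy_VCV against control_blank. With only the groups compared, the members called were 3 in healthy_noisy against control_blank, 10 in chronic_noisy against control_chronic, 1 in acute_noisy against healthy_noisy, 5 for mode in uninjured lungs, 0 for mode after acute and 0 for mode after chronic injury (in place of 5, 4, 6, 1, 3 and 1). With number series as a covariate they were 0 for mode in uninjured lungs and 2 in acute_noisy against healthy_noisy, and within series 15 they were 0 and 1. Without the 2 control_chronic libraries of lowest depth they were 1 in control_chronic against control_blank and 2 in chronic_noisy against control_chronic. The cause was not tested.

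Leaving out 1 library at a time gave 7 to 14 members in healthy_VCV (7 without control_blank_016), 2 to 7 in healthy_noisy (2 without control_blank_016), 9 to 13 in acute_VCV, 11 to 16 in acute_noisy and 0 to 4 in control_chronic (0 without control_blank_016), each against control_blank. It gave 3 to 7 in chronic_VCV (7 without chronic_VCV_067) and 3 to 6 in chronic_noisy against control_chronic, 10 to 14 in acute_VCV against healthy_VCV (10 without acute_VCV_049), and 4 to 10 in acute_noisy against healthy_noisy (10 without acute_noisy_053). For mode it gave 0 to 1, 1 to 3 (1 without acute_VCV_040) and 1 to 2 (2 without chronic_VCV_069) in uninjured, acutely and chronically injured lungs. For the differences it gave 1 to 8 (constant ventilation), 0 to 0 (variable ventilation) and 3 to 5 (mode). Among all genes called, the share that was higher differed between limma and edgeR by over 10 points in control_chronic against control_blank (62.6% and 38.4%), healthy_noisy against control_blank (54.5% and 42.1%), acute_noisy against healthy_noisy (48.2% and 63.6%), and for the differences of constant (41.5% and 53.3%) and variable ventilation (36.4% and 53.5%). Depth limits the members of low value most: Lta, Tnfsf11, Tnfrsf13b, Tnfrsf13c and Tnfrsf17 rested on few reads in the shallow libraries.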

Other observations

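Of 6 superfamily genes that the rule on names does not match, 3 could be tested (Cd40lg, Ngfr and Relt), and Ngfr is described after its values were seen. Ngfr, the low-affinity neurotrophin receptor, rose by 2.46 ± 0.49 log2 from healthy_VCV to acute_VCV (limma, adjusted p = 0.000236) and by 2.43 ± 0.49 from healthy_noisy to acute_noisy (0.00193). It fell by 1.91 ± 0.47 in chronic_VCV (0.0092) and by 1.44 ± 0.47 in chronic_noisy against control_chronic (0.0202), and by 1.68 ± 0.53 in healthy_noisy against control_blank (0.0184).

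With no filter on low values, Eda2r was higher in healthy_VCV by 2.07 (adjusted p = 0.0205) and in healthy_noisy by 2.19 (0.0378) than in control_blank, and lower in acute_VCV than in healthy_VCV, at -1.97 (0.0292). Tnfsf15 was higher in healthy_VCV by 1.69 (0.0117). Both genes lay under 13.2 in all 28 libraries, where a few reads decide a value. In chronic_VCV, library chronic_VCV_067 was the highest of 3 in 20 of 27 members and chronic_VCV_069 the lowest in 18. Among the acute_noisy libraries, acute_noisy_047 was the highest of 4 in 12 members and acute_noisy_053 the lowest in 12. The 4 split by number series: the chi-square per gene was 37.2 between 047 and 050 (series 14) and 43.2 between 046 and 053 (series 15), against 102 to 173 across the series. Cardiac muscle markers summed to 8336 and 2378 in the former pair and to 231 and 418 in the latter.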
